A study of Danio rerio with 6 samples.

Results

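Genes of autophagy and of lysosomal nutrient sensing were examined in sorted iridophores of zebrafish (Danio rerio) larvae, with the general cell population as the control. Their rows were picked by a rule on symbols, and the genes were chosen with earlier results of these data known. The rule took the numbered atg genes, the Atg8 family (gabarap and map1lc3), ulk, wipi, becn and sqstm1 genes, and the lamtor, rrag, flcn, fnip, mtor, rptor, mlst8, tfeb, tfe3, tsc, rheb, depdc5 and nprl genes. It matched 40 of the 11016 gene rows of the deposited table. There was no row under the symbols flcn, rptor, tsc1, lamtor1, gabarapa, ulk1a or ulk1b. Of the 40 rows, 37 belong to the named pathways. The other 3 (tsc22d1, tsc22d2 and tsc22d3_1) were matched by their letters only and code for TSC22 domain proteins, a leucine zipper family unrelated to the tuberous sclerosis complex, and they are described apart.

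Autophagy delivers cytoplasm to the lysosome. A kinase complex built around Ulk proteins starts the process, a lipid kinase complex marks the forming membrane, and small ubiquitin-like proteins of the Atg8 family are coupled to that membrane, where they bind cargo receptors such as Sqstm1. On the lysosome itself the Ragulator complex, made of the Lamtor proteins, holds the Rag GTPases, which bring the kinase complex mTORC1 to the surface when amino acids are plentiful. There Rheb switches mTORC1 on, and active mTORC1 holds back autophagy and the transcription factors Tfeb and Tfe3, which drive lysosomal genes. Iridophores are pigment cells whose reflecting purine crystals form in organelles related to lysosomes. In human patients, loss of LAMTOR2 lowers pigmentation.

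All 6 libraries came from larvae of wild-type genotype at 5 days post fertilization that carried the transgene Tg(pnp4a:PALM-mCherry), in which the pnp4a promoter drives a membrane-bound red fluorescent protein. The iridophore group held 3 biological replicates sorted on that fluorescence, and the control group held 3 of the general cell population. About 20000 cells went into each library. Whether the control still held fluorescent cells is not given in the labels, and a promoter-driven reporter selects whichever cells use that promoter. Library totals were 616439, 749799 and 1686552 counts in iridophore replicates 1, 2 and 3, against 1612637 to 3282480 counts in control libraries. A count of 3, taken as the detection floor, stood for 1.69 to 5.50 CPM (counts scaled to a common library size) in iridophores and 0.897 to 1.79 CPM in the control. This floor covers counting error only.

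Marker genes of the labelled cell type were high in the iridophore libraries. Of an iridophore list of 14 genes, 12 were in the table, and all 12 were tested and called higher, beside 22.1% of all tested genes. Of these, tfec, fhl2b, alx4a, sox10, defbl1 and slc2a15a had enough counts to be tested through the iridophore libraries alone. This count is therefore a description. Their summed level was 10692 to 17398 CPM in iridophores and 129 to 241 CPM in the control. Most of that sum was apoda.1, with 6794, 11297 and 8070 CPM in iridophores. The list includes pnp4a, whose promoter drives the reporter used for sorting. Markers of other cells also differed between the groups. Skeletal muscle genes summed to 21199.8 to 25098 CPM in iridophores and 10940.1 to 13137 CPM in the control, with 9 of 11 called higher and 0 lower. Of the macrophage and leukocyte list, 4 of 12 genes were in the table and summed to 427 to 581 CPM in iridophores and 814 to 1158 CPM in the control, with coro1a called higher and apoeb lower. That sum is nearly all apoeb, with 407, 466 and 525 CPM in iridophores and 812, 1152 and 1110.5 CPM in the control. The other 3 genes were higher in iridophores in value, with 12.8, 18.9 and 38.8 CPM against 0, 1.79 and 0 CPM in the control for coro1a. For marco, not tested, there were 3.66, 23.2 and 9.56 CPM in iridophores and 0.897, 1.79 and 2.56 CPM in the control. For mfap4, not tested, there were 3.66, 16.0 and 7.31 CPM in iridophores and 0.598, 1.79 and 4.10 CPM in the control. Among the remaining lists, 1 of 6 melanophore genes was higher and 0 were lower, 3 of 4 xanthophore genes were higher and 1 was lower, and 1 of 6 epidermis genes was higher and 0 were lower. Erythrocyte genes were lower for 4 of 4, genes of liver, intestine and pancreas for 4 of 7, and neuron genes for 0 of 8, with 0 higher in each. Among all tested genes 22.1% were called higher and 17.8% lower. The gene coro1a and the xanthophore genes slc2a15b and pts had enough counts to be tested through the iridophore libraries alone. The counts of these lists are therefore descriptions. No matched marker row had 0 counts over the 3 iridophore libraries. The part of these other cells in the results below was not tested. In sorted bulk samples, fewer cells of a type and less RNA per cell cannot be told apart. Across genes, iridophore replicate 1 was the library least like its own group, with Pearson coefficients of 0.890 and 0.904 to replicates 2 and 3, which had 0.936 between them.

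The 40 rows are counted as genes here, with lamtor5 and lamtor5_1 counted apart. Of them, 30 had enough counts to be tested. In iridophores 14 of them were called higher at an edgeR adjusted p under 0.05 and 0 were called lower. Among all 6849 tested genes 22.1% were called higher and 17.8% lower. Levels did not overlap between the groups for 15 of the 30 with iridophores higher and for 1 with iridophores lower, where the same was true of 27.0% and 24.9% of all tested genes. The median log2 fold change, iridophore over control, was 0.98 over the 30 genes and 0.013 over all tested genes. These counts and this median are descriptions, because 5 genes (lamtor3, lamtor5, lamtor5_1, gabarapl2 and rheb) passed the filter on low counts through the iridophore libraries alone and 1 gene (nprl3) through the control libraries alone. At an unadjusted p under 0.05, 15 of the 30 were higher and 1 (nprl3) was lower, against 26.1% and 22.6% of all tested genes. With DESeq2 in place of edgeR, 14 of 39 genes were higher and 0 lower, against 14.7% and 11.3% of all genes. Without any filter all 40 could be tested, and 15 were higher and 0 lower, against 16.3% and 12.8% of all genes. In edgeR's test against a log2 fold change of 1, 7 of the 30 were higher and 0 lower, against 11.4% and 3.31% of all tested genes. With lamtor5 and lamtor5_1 added together, a choice made after seeing the data, 13 of 29 were higher and 0 lower. All tested genes then had 22.1% higher and 17.8% lower.

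**Figure D1:**
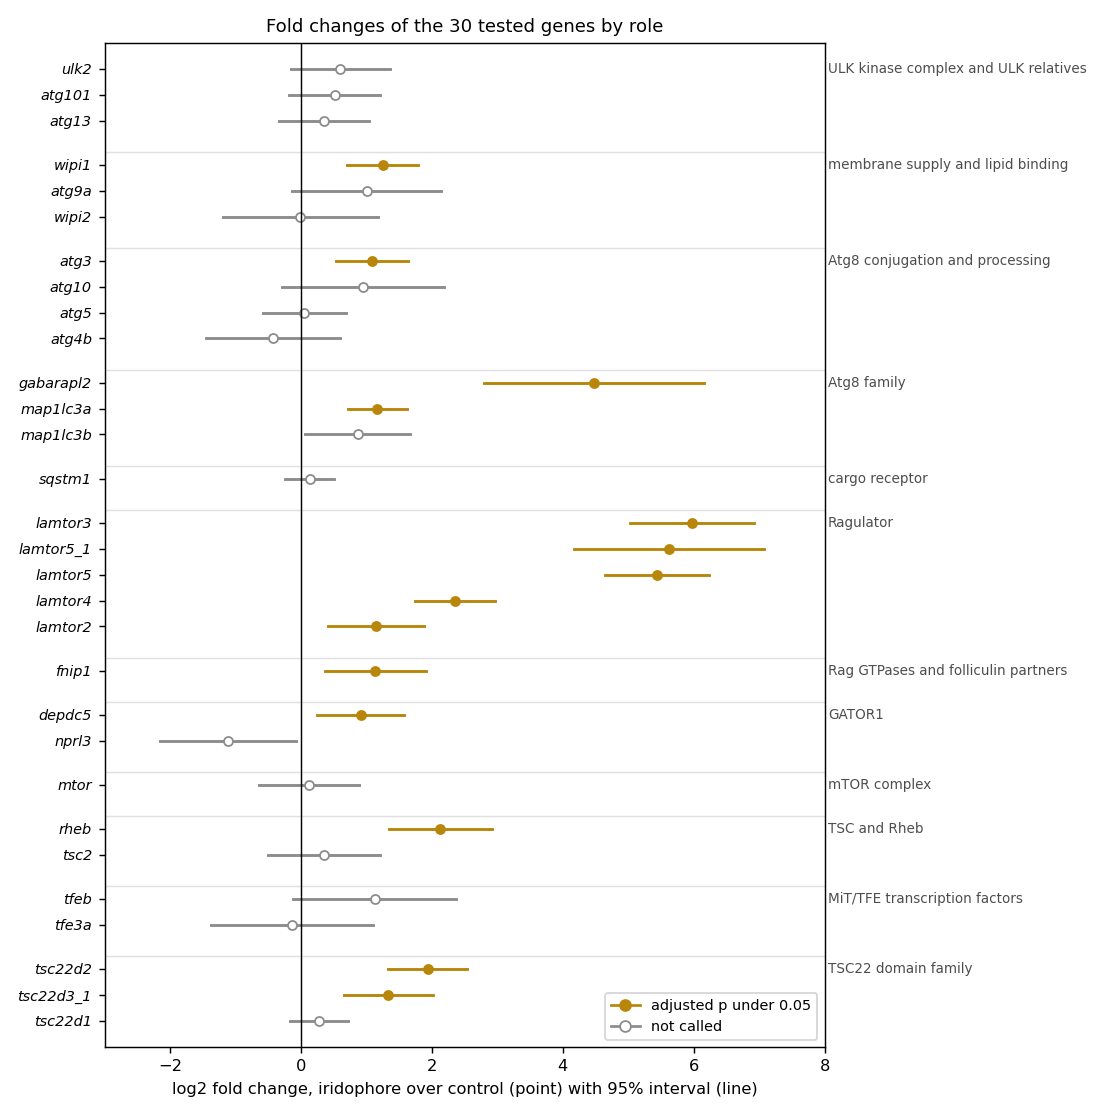
Log2 fold change of each tested gene (points) with its 95% interval (lines), iridophore over control, grouped by role and sorted within each role. Gold filled points mark genes with an edgeR adjusted p under 0.05 and grey open points mark the rest. The Ragulator rows reach from 1.14 to 5.97, 3 of them lie furthest to the right followed by gabarapl2 at 4.47, and nprl3 is the open point furthest to the left at -1.12.

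Ragulator was represented by rows of lamtor2, lamtor3, lamtor4 and lamtor5 (as lamtor5 and lamtor5_1), and no row had the symbol lamtor1. All 5 of these rows were called higher in iridophores, beside 22.1% of all tested genes. The rows lamtor3, lamtor5 and lamtor5_1 passed the filter on low counts through the iridophore libraries alone. This count and the sum are therefore descriptions. The summed level of the 5 rows was 238, 276 and 226 CPM in iridophore replicates 1, 2 and 3, against 47.9, 32.1 and 46.1 CPM in control replicates 1, 2 and 3. The groups did not overlap, and the log2 fold changes of the rows ranged from 1.14 to 5.97.

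The gene lamtor3 codes for a roadblock-fold subunit that pairs with Lamtor2. Its level was 33.0, 33.4 and 29.8 CPM in iridophores, against 0.299, 0.595 and 0.513 CPM in the control, which is 1 count in each control library. The iridophore libraries lay close together and far above the control. The log2 fold change was 5.97 ± 0.42 (SE; adjusted p by edgeR 6.526e-06). Because the control rests on 3 counts in all, the ratio of pooled counts of 72.5 has an exact 95% counting interval of 24.1 to 358.

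The other subunit pair is Lamtor4 with Lamtor5. The row lamtor5 had 42.1, 50.8 and 45.6 CPM in iridophores, against 1.20, 0.595 and 1.03 CPM in the control, which gave a log2 fold change of 5.43 ± 0.35 (SE; adjusted p by edgeR 4.704e-06). The row lamtor5_1, whose suffix marks a repeated symbol and whose share of reads is therefore uncertain, had 16.5, 34.8 and 21.9 CPM in iridophores, against 0.897, 0 and 0 CPM in the control. Both rows were near or under the floor in every control library and well above it in every iridophore library. The pooled-count ratio was 46.0 (95% counting interval 21.7 to 116) for lamtor5 and 55.6 (18.3 to 276) for lamtor5_1. Without control replicate 1 the control of lamtor5_1 had 0 counts, and no fold is given for it. With both rows added together, a choice made after seeing the data, the log2 fold change was 5.58 ± 0.39 (SE; adjusted p by edgeR 6.016e-06).

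The gene lamtor4 had 78.8, 126 and 75.9 CPM in iridophores, against 20.0, 15.5 and 18.5 CPM in the control, and its log2 fold change was 2.35 ± 0.27 (SE; adjusted p by edgeR 0.000136). Control libraries thus held lamtor4 well above the floor, unlike its partner lamtor5. For lamtor2 the levels were 67.8, 30.5 and 52.3 CPM in iridophores and 25.4, 15.5 and 26.1 CPM in the control. The groups did not overlap, but iridophore replicate 2 lay only a little above the highest control. The log2 fold change of lamtor2 was 1.14 (SE 0.33, edgeR adjusted p 0.0198), but leaving out iridophore replicate 3 (edgeR adjusted p 0.0809) or control replicate 2 (edgeR adjusted p 0.105) ended the call.

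Levels were also set side by side as ratios of 2 genes within a library. Of 8 such ratios, picked after the values had been seen, 5 involve a gene with 3 counts or fewer in some library (lamtor3, lamtor5, gabarapl2, nprl3 and wipi2) and are not given, because the pseudocount weighs heavily there. For lamtor4 over lamtor2 the log2 ratio was 0.21, 2.02 and 0.54 in iridophores, against -0.34, 0 and -0.50 in the control, a difference of 1.20. The groups did not overlap, and iridophore replicate 2 was far above the other 2 libraries of its group. The exact permutation test (two-sided) gave 0.1, which no design of 3 libraries against 3 can go below, and 0.114 after Benjamini-Hochberg adjustment over the 8 ratios.

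**Figure D2:**
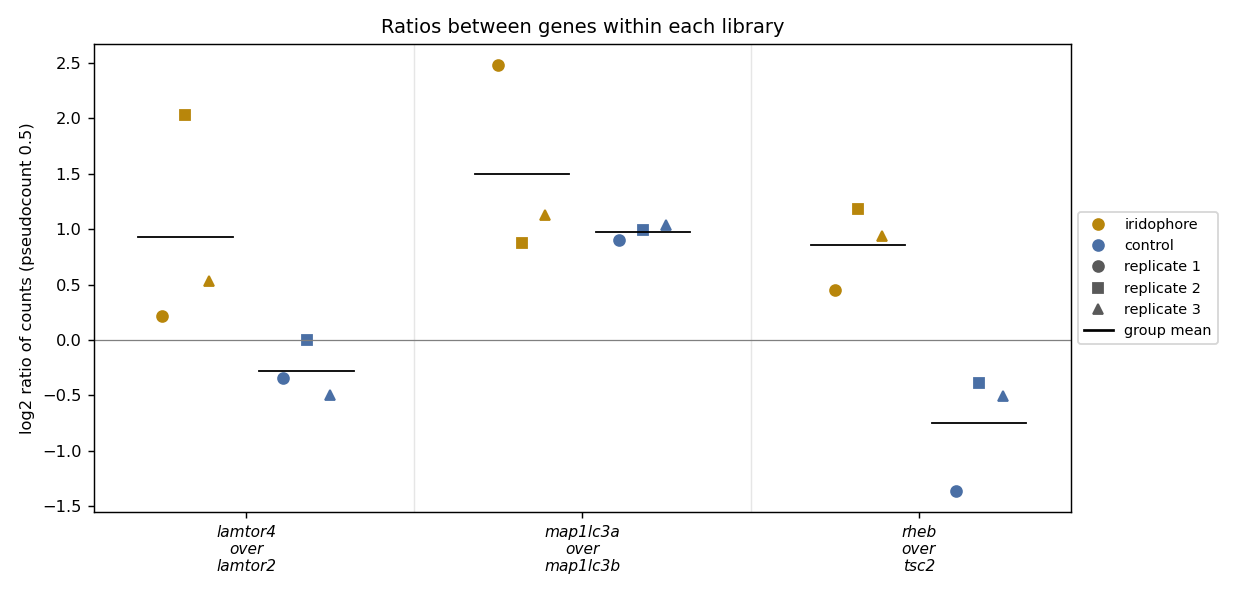
Log2 ratio of the counts of 2 genes within each library (pseudocount 0.5), for the 3 pairs with more than 3 counts of both genes in every library, with iridophores in gold left of the control in blue. Symbols give the replicate and bars the group mean. The groups are apart for lamtor4 over lamtor2 and rheb over tsc2, whose difference is 1.61, and overlap for map1lc3a over map1lc3b.

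Downstream of Ragulator, the Rag GTPase gene rraga was too low to be tested. It had 2, 29 and 8 counts in iridophore libraries and 8, 1 and 2 in control libraries, that is 3.66, 42.1 and 4.50 CPM against 2.39, 0.595 and 1.03 CPM. Iridophore replicate 2 alone was high. Without the filter its log2 fold change was 3.22 (edgeR adjusted p 0.0150).

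Folliculin-interacting protein 1, a partner of the GTPase-activating protein folliculin on the lysosome, is encoded by fnip1. It had 18.3, 20.3 and 17.4 CPM in iridophores, against 5.68, 9.52 and 10.8 CPM in the control. The log2 fold change was 1.13 ± 0.34 (SE; adjusted p by edgeR 0.0254). This call was lost without iridophore replicate 2 or 3 or control replicate 1 or 2, at edgeR adjusted p 0.0673 to 0.111. It was also lost under DESeq2 (adjusted p 0.118) and without replicate 1 of both groups.

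GATOR1 is the complex that turns the Rag GTPases off when amino acids are short, and 2 of its subunit genes were tested. For depdc5 the levels were 20.2, 16.0 and 18.0 CPM in iridophores and 8.38, 10.7 and 9.74 CPM in the control. It was called higher, with a log2 fold change of 0.91 ± 0.30 (SE; adjusted p by edgeR 0.0334), but leaving out a library ended the call in 5 of 6 fits, all but that without iridophore replicate 2 (adjusted p by edgeR 0.0659 to 0.135). The call was also lost under DESeq2 (adjusted p 0.213) and without the filter (edgeR adjusted p 0.0668). The same held without replicate 1 of both groups and with the replicate block. The gene nprl3 had 5.50, 4.36 and 2.2495 CPM in iridophores, against 8.67, 6.55 and 7.18 CPM in the control. All 3 iridophore libraries lay under all 3 controls, but the log2 fold change of -1.12 ± 0.47 (SE; adjusted p by edgeR 0.0823) did not pass the threshold.

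Of the genes for the mTORC1 activator, its inhibitor and the kinase itself, the activator's was called higher, beside 22.1% of all tested genes. The gene rheb had 12.8, 17.4 and 18.6 CPM in iridophores, against 3.29, 3.57 and 4.61 CPM in the control. Every iridophore library lay above every control library, and the log2 fold change was 2.13 ± 0.35 (SE; adjusted p by edgeR 0.0012). The gene tsc2, which codes for the protein that switches Rheb off, had 9.16, 7.26 and 9.56 CPM in iridophores and 8.67, 4.76 and 6.67 CPM in the control. Its log2 fold change was 0.35 (95% interval -0.51 to 1.20, edgeR adjusted p 0.501). The log2 ratio of rheb to tsc2 was 0.45, 1.18 and 0.94 in iridophores and -1.36, -0.39 and -0.51 in the control, a difference of 1.61 (exact permutation p 0.1, adjusted 0.114). That p is the lowest this design allows, and the pair is among the 8 picked after the values had been seen. The gene rheb also passed the filter on low counts through the iridophore libraries alone, so this ratio is a description.

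The kinase gene mtor had 11.0, 7.26 and 12.4 CPM in iridophores, against 9.87, 10.7 and 8.72 CPM in the control. The groups overlapped, with a log2 fold change of 0.12 (95% interval -0.64 to 0.88, edgeR adjusted p 0.808). The row mlst8_1, for another subunit of the mTOR complexes, and rhebl1, a relative of rheb, were too low to be tested, with 12 and 10 counts over the iridophore libraries and 21 and 4 over the control libraries.

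**Figure D3:**
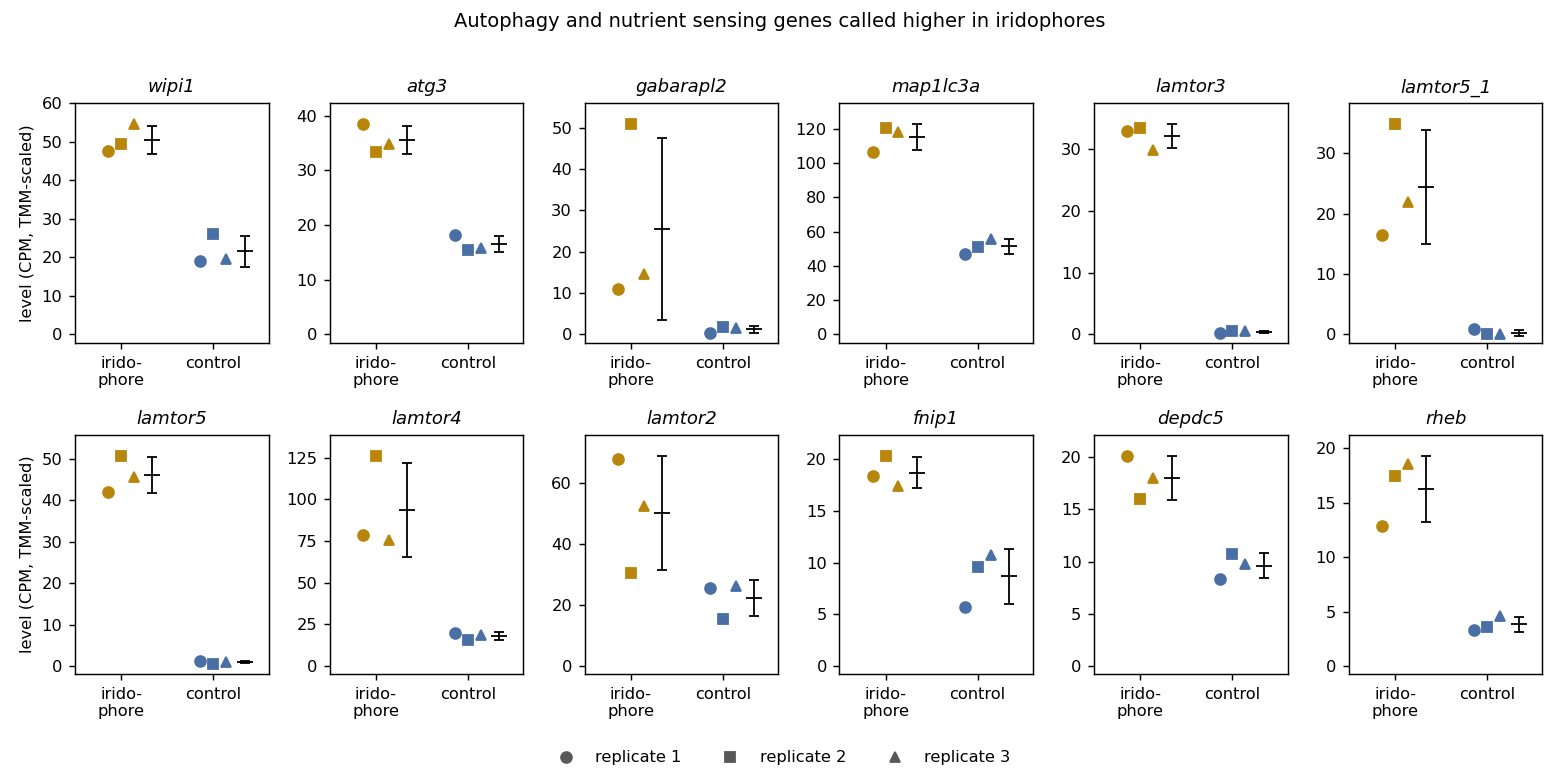
Level in CPM of the 12 genes called higher in iridophores outside the TSC22 family, with iridophores (gold) left of the control (blue) and a separate linear scale for each gene. Symbols give the replicate, and the black bar and whiskers give the mean and SD of the 3 libraries. In all 12 panels the 3 iridophore libraries lie above the 3 control libraries, which held for 27.0% of all tested genes. The genes were drawn because they were called higher, so this separation is a description. The gene gabarapl2 shows the wide spread in iridophores, from 11.0 to 50.8 CPM.

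In the Atg8 family, 2 of the 3 tested genes were called higher, beside 22.1% of all tested genes. Of these, gabarapl2 passed the filter on low counts through the iridophore libraries alone. Atg8 proteins are coupled to lipid on the autophagosome membrane and fall into an Lc3 branch and a Gabarap branch. The Lc3 gene map1lc3a had 106, 121 and 118 CPM in iridophores, against 47.0, 51.2 and 55.9 CPM in the control. The libraries of each group lay close together, and the log2 fold change was 1.17 ± 0.20 (SE; adjusted p by edgeR 0.00146).

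Its relative map1lc3b had 18.3, 65.3 and 54.0 CPM in iridophores and 25.13, 25.6 and 27.2 CPM in the control. Iridophore replicate 1 lay under the controls and the other 2 above them, and the log2 fold change of 0.86 ± 0.36 (SE; adjusted p by edgeR 0.0824) did not pass. Without iridophore replicate 1 it was called higher, at 1.16 (edgeR adjusted p 0.00259). The difference between the 2 Lc3 genes was not resolved: the log2 ratio of map1lc3a to map1lc3b differed by 0.52 between the groups (exact permutation p 0.5).

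The matched rows of the Gabarap branch, gabarapl2 and gabarapb, were sparse in the control, and no row had the symbol gabarapa. The gene gabarapl2 had 11.0, 50.8 and 14.6 CPM in iridophores, against 0.299, 1.79 and 1.54 CPM in the control, which is 1, 3 and 3 counts. All control libraries were at or under the floor, and iridophore replicate 2 was far above the other 2. The log2 fold change was 4.47 ± 0.76 (SE; adjusted p by edgeR 0.00132), and the pooled-count ratio was 22.2 (95% counting interval 10.18 to 57.2). Without iridophore replicate 2 the log2 fold change was 3.58 and without control replicate 1 it was 3.78, both still called. The other matched gene of the branch, gabarapb, was too low to pass the filter, with 2, 9 and 13 counts in iridophores and 0, 3 and 1 in the control. Without the filter it was called higher (log2 fold change 3.51, edgeR adjusted p 0.00866).

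Taken as a share of all counts for the 5 Atg8 rows, gabarapl2 and gabarapb together made up 9.20%, 25.6% and 11.1% in iridophores, against 0.408%, 4.29% and 2.23% in the control. The Wilson 95% intervals, which cover counting error only, were 4.73% to 17.1%, 19.6% to 32.6% and 8.21% to 14.8% in iridophores and 0.0721% to 2.28%, 1.98% to 9.03% and 0.872% to 5.604% in the control. The shares did not overlap, but the interval of iridophore replicate 1 overlapped those of control replicates 2 and 3, and that of iridophore replicate 3 overlapped that of control replicate 2. The gene gabarapl2 passed the filter on low counts through the iridophore libraries alone, and gabarapb did not pass it. These shares are therefore a description. The fifth row, map1lc3cl, had 11, 0 and 7 counts in iridophores and 3, 5 and 13 in the control and was not tested.

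Of the 4 tested genes for enzymes that couple Atg8 proteins to lipid or process them, 1 was called higher. This is 25%, near the 22.1% of all tested genes. The called gene was atg3. It codes for the E2-like enzyme of that reaction and had 38.5, 33.4 and 34.9 CPM in iridophores, against 18.2, 15.5 and 15.9 CPM in the control (log2 fold change 1.09, SE 0.25, edgeR adjusted p 0.00631). Both groups were tight and did not overlap. The gene atg5, part of the E3-like complex, had 25.6, 26.1 and 18.6 CPM in iridophores and 26.0, 17.9 and 21.0 CPM in the control, with a log2 fold change of 0.052 (95% interval -0.59 to 0.69, edgeR adjusted p 0.906). For atg10, the E2-like enzyme that joins Atg12 to Atg5, the value was 0.95 (edgeR adjusted p 0.204), and among the alternatives run it passed only without iridophore replicate 1 (1.29, edgeR adjusted p 0.0471). The processing protease gene atg4b had -0.43 (edgeR adjusted p 0.485). The E1-like gene atg7 and the protease gene atg4c were not tested, with 19 and 8 counts over the iridophore libraries and 26 and 24 over the control libraries. The difference between atg3 and the other enzymes was not tested.

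Of the 3 tested genes for proteins that bind or supply the growing membrane, wipi1 alone was called higher, beside 22.1% of all tested genes. Wipi proteins read the lipid made by the class III PI3-kinase. The levels of wipi1 were 47.6, 49.4 and 54.6 CPM in iridophores and 19.1, 26.2 and 19.5 CPM in the control, with a log2 fold change of 1.25 ± 0.24 (SE; adjusted p by edgeR 0.00284). Its paralog wipi2 had 7.33, 2.90 and 18.6 CPM in iridophores, against 9.27, 11.9 and 13.8 CPM in the control, and a log2 fold change of -0.0093 (95% interval -1.20 to 1.18, edgeR adjusted p 0.993). The iridophore libraries of wipi2 lay on both sides of the control, so this interval is wide. The gene atg9a, for the membrane protein of the seed vesicles, had a log2 fold change of 1.01 ± 0.51 (SE; adjusted p by edgeR 0.144).

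None of the 3 tested genes of the initiating complex passed, where 22.1% of all tested genes were called higher and 17.8% lower. No row had the symbol ulk1a or ulk1b. The log2 fold changes of the tested genes of the complex were 0.60 for the kinase gene ulk2, 0.51 for atg101 and 0.35 for the scaffold gene atg13 (edgeR adjusted p 0.188 to 0.392). For ulk2 the levels were 23.8, 26.1 and 45.6 CPM in iridophores and 15.9, 22.0 and 29.2 CPM in the control. Iridophore replicate 3 was high and the groups overlapped. For atg101 the iridophore libraries had 22.0, 36.3 and 18.6 CPM, all above the 17.3, 17.9 and 16.9 CPM of the control by a small margin in replicate 3. The related kinase genes ulk3 and ulk4 and the PI3-kinase subunit gene becn1 were not tested. They had 14, 19 and 13 counts over the iridophore libraries and 29, 11 and 48 over the control libraries.

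The cargo receptor gene sqstm1 had by far the most counts among these genes and the smallest standard error of those tested. Its level was 1235, 1482 and 1475 CPM in iridophores, against 1286, 1304 and 1241 CPM in the control. The groups overlapped. The log2 fold change was 0.13 (SE 0.17, 95% interval -0.25 to 0.51, edgeR adjusted p 0.571), so a change of more than 0.51 lies outside the interval.

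Neither transcription factor gene of the group was called, where 22.1% of all tested genes were called higher and 17.8% lower. The gene tfeb had 9.16, 16.0 and 5.62 CPM in iridophores and 3.89, 7.14 and 2.05 CPM in the control, with a log2 fold change of 1.13 (95% interval -0.12 to 2.37, edgeR adjusted p 0.136). The gene tfe3a had 7.33, 1.45 and 7.31 CPM in iridophores and 3.89, 9.52 and 6.67 CPM in the control, with a value of -0.14 (95% interval -1.37 to 1.09, edgeR adjusted p 0.865). Both intervals hold a log2 fold change of 1. Their relative tfec, an iridophore fate gene outside the rule that also stands in the marker list, had 82.4, 119 and 107 CPM in iridophores, against 1.20, 2.98 and 3.08 CPM in the control, which gave a log2 fold change of 5.49 ± 0.36 (SE; adjusted p by edgeR 4.677e-06).

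Of the 3 TSC22 genes, 2 were called higher. The level of tsc22d2 was 45.8, 55.2 and 74.8 CPM in iridophores, against 14.1, 18.5 and 14.9 CPM in the control (log2 fold change 1.93, SE 0.27, edgeR adjusted p 0.000415). The row tsc22d3_1, whose symbol is that of a gene known in mammals as a glucocorticoid target, had 20.2, 23.2 and 18.6 CPM in iridophores, against 8.08, 9.52 and 6.67 CPM in the control (1.33, SE 0.30, edgeR adjusted p 0.00681). The gene tsc22d1, with the most counts of the 3, had 91.6, 112 and 114 CPM in iridophores and 89.7, 91.7 and 82.5 CPM in the control (0.27, 95% interval -0.17 to 0.72, edgeR adjusted p 0.307). Without these 3 genes, 12 of 27 tested pathway genes were higher and 0 were lower, beside 22.1% and 17.8% of all tested genes. At an unadjusted p under 0.05, 13 of the 27 were higher and 1 was lower, beside 26.1% and 22.6% of all tested genes. The 12 include the 5 genes that passed the filter on low counts through the iridophore libraries alone.

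Partners of the same pathways that the rule did not take were read from 11 lists with 152 genes in all, of which 50 could be tested. In iridophores 13 were called higher and 5 lower, with a median log2 fold change of 0.39. This is 26.0% and 10.0% of those tested, beside the 22.1% and 17.8% of all genes. These counts, those of the lists and the median are descriptions. The genes bloc1s1 (BORC list) and tfec (list of MiT/TFE relatives) passed the filter on low counts through the iridophore libraries alone. BORC is the complex that binds Ragulator and moves lysosomes through the GTPase Arl8. In the list of BORC and Arl8, 4 of 5 tested genes were higher and 0 lower. The 4 were the GTPase gene arl8ba and the subunit genes bloc1s1, bloc1s2 and kxd1. The BORC subunit gene borcs5 was not tested, and no row had the symbol borcs6, borcs7 or borcs8. In the class III PI3-kinase list 3 of 6 were higher and 1 was lower. Of the 7 tested selective autophagy receptors 0 were higher and 2 lower. In the list named amino acid sensors, 2 of 7 tested genes were higher (sesn1 and slc3a2b) and 2 lower. That list is not made of sensors alone, as slc3a2b codes for the heavy chain of amino acid exchangers. Of the 4 tested genes of MiT/TFE relatives and lysosomal calcium, 3 (tfec, ppp3r1b and ywhaba) were higher and 0 lower, with tfec alone called by DESeq2, and of the 2 tested Ulk complex partners 1 was higher and 0 lower. In the lists of mTORC1 targets, of AMPK and its activator, of GATOR2 and KICSTOR, of mTOR complex partners and of autophagosome fusion, 0 of 7, 6, 3, 2 and 1 tested genes were called by edgeR in either direction. Over the 19 tested genes of those 5 lists, 4 were higher and 0 lower at an unadjusted p under 0.05, where 26.1% and 22.6% of all genes were, and DESeq2 called 0. DESeq2 tested 77 of the listed genes and called 11 higher and 4 lower, beside 14.7% and 11.3% of all genes it tested. Among the 50 genes tested by edgeR it called 9 higher and 4 lower.

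**Figure D4:**
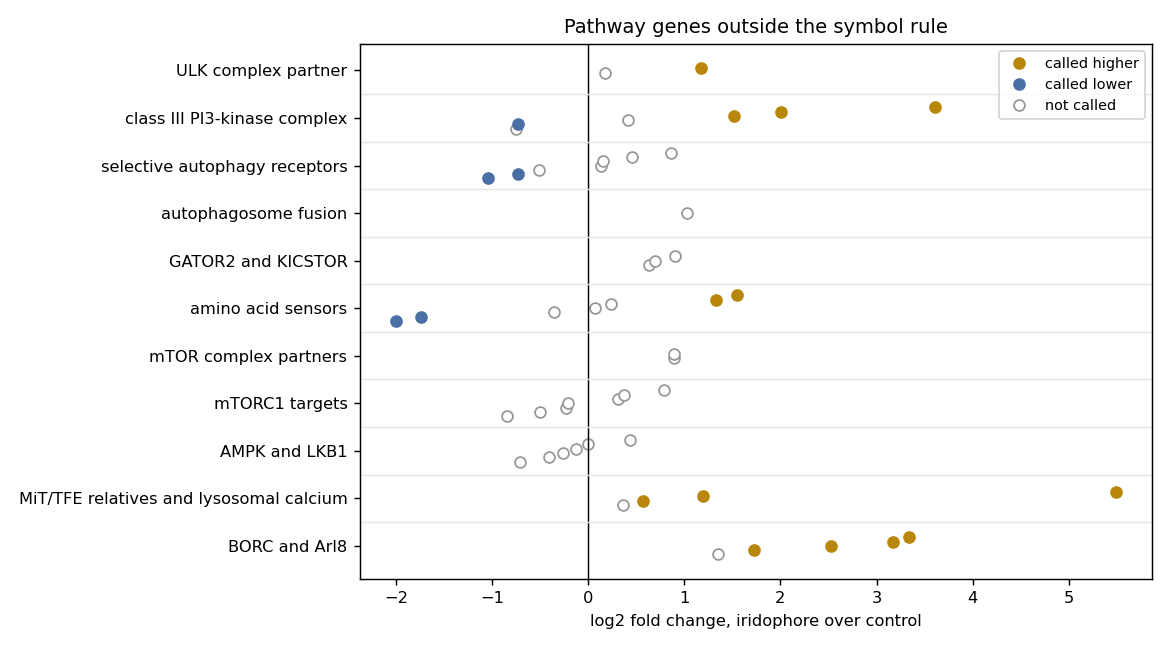
Log2 fold change, iridophore over control, of the 50 tested pathway genes outside the rule, by list. Gold points were called higher, blue points lower, and open grey points were not called. The 4 gold points of BORC and Arl8 lie between 1.72 and 3.34, and the mTORC1 target and AMPK points are all open and lie on both sides of 0. The spread of points up and down within a list has no meaning.

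The highest log2 fold change among these genes after tfec was that of sh3glb1b, which codes for an endophilin that binds the class III PI3-kinase complex through Uvrag. It had 352, 411 and 403 CPM in iridophores, against 30.5, 26.8 and 38.5 CPM in the control (log2 fold change 3.60, SE 0.23, edgeR adjusted p 4.435e-06). The catalytic subunit gene pik3c3, named here after its values were seen, had 42.1, 31.9 and 37.7 CPM in iridophores and 9.27, 9.52 and 8.72 CPM in the control (2.01, SE 0.26, edgeR adjusted p 0.000279). The groups did not overlap for either gene.

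Of the BORC list, bloc1s1, a subunit shared with the melanosome complex BLOC-1, had 38.5, 42.1 and 43.9 CPM in iridophores, against 4.79, 1.19 and 5.64 CPM in the control (3.34, SE 0.39, edgeR adjusted p 0.000146). The subunit gene kxd1 had 29.3, 30.5 and 24.2 CPM in iridophores, against 2.39, 7.14 and 5.64 CPM in the control (2.53, SE 0.40, edgeR adjusted p 0.00091). The lysosomal GTPase gene arl8ba had 73.3, 119 and 90.0 CPM in iridophores, against 9.57, 10.12 and 11.8 CPM in the control (3.17, SE 0.27, edgeR adjusted p 1.809e-05). The remaining called gene, bloc1s2, is outside the naming rule and, like bloc1s1, is also a BLOC-1 subunit gene. It had 36.6, 63.9 and 53.4 CPM in iridophores, against 18.2, 8.93 and 19.0 CPM in the control (1.72, SE 0.33, edgeR adjusted p 0.00266).

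The 5 genes called lower came from 3 of the lists. Their log2 fold changes were -1.997 for larsb, a leucyl-tRNA synthetase gene, -1.73 for tm4sf5, whose human protein binds arginine at the lysosome, -1.04 for the ferritin receptor gene ncoa4, -0.73 for the mitochondrial receptor gene phb2a and -0.73 for vmp1, which codes for a lipid-moving protein of the endoplasmic reticulum (edgeR adjusted p 0.000794 to 0.0428). For ncoa4 the levels were 18.3, 29.0 and 39.4 CPM in iridophores and 58.6, 67.3 and 63.1 CPM in the control. The calls of phb2a and vmp1 were lost in 4 and 5 of the 6 fits that left out a library. Of the 13 genes called higher, 6 lost the call in such a fit, namely sesn1 in 1 of the 6 fits, pik3r4 and wdr41 in 3, ppp3r1b in 4 and slc3a2b and ywhaba in 5 (genes outside the naming rule, listed for this loss). The count of 5 lower genes became 3 without iridophore replicate 2, control replicate 1 or control replicate 2. In those fits 11.7%, 14.1% and 13.3% of all tested genes were lower. The count of 13 higher genes became 20 of 56 tested without replicate 1 of both groups, beside 23.5% of all tested genes.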

How the data were processed

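Bulk RNA was sequenced from 3 iridophore and 3 control libraries. Per the labels' protocols, poly(A) RNA was made into libraries by a bulk form of MARS-seq, which tags transcript 3' ends. The deposited table holds raw counts per gene symbol that the authors had not normalized. Per the submitters' processing notes, cutadapt, STAR 2.5.2b, HTSeq, DESeq2 1.36.1 and danRer11 were used. Their roles, the annotation, any filter on genes and whether molecular identifiers were collapsed are not given in the sources used here. Transcripts that share 3' ends cannot be told apart, and rows with a suffixed symbol (3 of the 40) may hold split reads. The table has 0 columns without a sample. RefSeq (GRCz12tu) held 37 of the 40 symbols. No sequences were analysed here.

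Counts were fitted with edgeR 4.0.16 in R 4.3.3 (quasi-likelihood F test, group as the only term, TMM factors, default filter with minimum count 10 and minimum total 15). The filter left 6849 of 11016 genes with 98.7% of counts, and p-values were Benjamini-Hochberg adjusted over them with a threshold of 0.05. CPM values use TMM-scaled totals. Standard errors were derived from the fold change and its F statistic, and 95% intervals use the test's degrees of freedom. Pooled-count ratios have exact binomial intervals. The fit was tested on simulated counts. Alternatives used DESeq2 1.42.0, its size factors, no filter, the replicate block, the ending of the library name, libraries left out and a minimum log2 fold change of 1 in the null hypothesis.

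The genes and lists were chosen with earlier results of these data known. Values in every library are given for called genes, their tested paralogs and the tested gene with the most CPM in each role. Outside the rule, the 5 highest and 5 lowest called genes are named.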

Additional observations from a re-analysis of the deposited data

How the results depend on the processing

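Of the 14 called genes, 7 kept the call in every alternative run (lamtor3, lamtor4, lamtor5, lamtor5_1, gabarapl2, rheb and tsc22d2), 4 lost it only in the test against a log2 fold change of 1 (wipi1, atg3, map1lc3a and tsc22d3_1), and 3 (lamtor2, fnip1 and depdc5) lost it in others too. That stricter test called 7 of the 30 higher and 0 lower (11.4% and 3.31% of all genes), and 7 higher and 2 lower among the pathway genes outside the rule. With 1 library left out, 31 to 34 genes could be tested, with 11 to 16 called higher and 0 lower. Outside the rule 52 to 60 could be tested, with 10 to 19 higher and 3 to 5 lower. Over all tested genes these fits called 17.3% to 22.9% higher and 11.7% to 18.8% lower. Without replicate 1 of both groups, which share a library name ending, 14 of 32 tested were higher, and 20 of 56 outside the rule, beside 23.5% of all genes, where the cause was not tested. That fit kept 12 of the 14 calls, with fnip1 and depdc5 lost. DESeq2 also kept 12 of the 14 calls, and the fit without a filter kept 13. With the ending as a term 14 of 30 were higher, beside 24.4% of all genes. DESeq2 size factors in edgeR gave 14 of 30, beside 21.5%, and shifted the median of all genes by -0.027. Signs turned only for uncalled genes. The value of atg5 was -0.025 without the filter and -0.035 with DESeq2, and that of mtor was -0.0044 with DESeq2. With 1 library left out, atg13 ranged from -0.087 to 0.51, atg5 from -0.17 to 0.20, mtor from -0.16 to 0.28, tfe3a from -0.67 to 0.19 and wipi2 from -1.26 to 0.35. The cause was not tested.

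Same-numbered libraries had correlated deviations of 0.315, 0.071 and 0.175 for replicates 1, 2 and 3. Iridophore replicate 2 correlated best with control replicate 3, so the numbers were not taken as pairs. Replicate 1 of either group had only negative values with replicates 2 and 3 of the other (-0.241 to -0.152). Between the groups, replicates 2 and 3 had only positive values (0.071 to 0.175). Deviations of 3 libraries from their group mean sum to 0, so these signs depend on one another and are not separate observations. This split is that of the library name ending, and its cause was not tested. With the replicate block, 13 of the 30 genes were higher and 0 lower, with depdc5 lost, and outside the rule 15 of 50 were higher and 6 lower, beside 23.1% and 20.3% of all genes. The 10 untested genes had too few counts in both groups for the filter, and a count of 3 stands for 5.50 CPM in iridophore replicate 1, the shallowest library.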

Other observations

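Some pathway genes under the filter had a split within the iridophore group, and they are named here after their values were seen. The mitochondrial autophagy receptor gene fundc1 had 0, 8.71 and 8.44 CPM in iridophore replicates 1, 2 and 3, and 0 counts in all 3 control libraries. The gene snapin, a subunit of BORC and of BLOC-1, had 1.83, 50.8 and 45.0 CPM in iridophores, against 1.20, 1.79 and 0.513 CPM in the control. The gene gpr137c, of a family of lysosomal membrane proteins, had 5.50, 21.8 and 28.1 CPM in iridophores, against 2.99, 1.79 and 4.61 CPM in the control. In all 3 genes iridophore replicate 1 was at or under its floor of 5.50 CPM, while replicates 2 and 3 were above every control library. Above the floor, slc3a2b, the heavy chain of amino acid exchangers, had 22.0, 87.1 and 105 CPM in iridophores and 11.4, 32.1 and 34.4 CPM in the control. It was low in replicate 1 of both groups. Its call (log2 fold change 1.55, edgeR adjusted p 0.038) was lost when any library other than iridophore replicate 1 was left out.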
